A study of Homo sapiens with 18 samples.

Results

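Constant distal regions are stretches of open chromatin that carried an ATAC-seq peak in each of 9 libraries and lay away from gene starts. They were chosen by the peak calls and summit pileups of the same 9 libraries. The overlapping peak intervals were merged into 85549 regions, of which 26984 had a peak in every library, and of these the regions were kept whose highest summit was over 5 kb from every gene start (the outer end of each RefSeq gene in the RNA-seq tables, on its strand). This gave 14474 regions, and the other 12510 regions with a peak in every library, within 5 kb of a gene start, served as the comparison. The libraries came from 3 lines of K562, a human erythroleukemia cell line that makes WT1 but hardly any BASP1. V-K562 is the control line, for which the labels name no construct. Stable expression of wtBASP1 defined B-K562, and G-K562 stably made BASP1-G2A, in which the glycine that receives the N-terminal myristoyl group is replaced by alanine. Each line was sampled in 3 cultures for ATAC-seq and in 3 for RNA-seq, and the cells for ATAC-seq were treated with DNase before harvest. Each condition was a single line, so the expressed protein and any other difference between the lines cannot be told apart, and p-values measured the spread between cultures of a line.

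BASP1 is a WT1-bound corepressor, and its myristoylation lets it bind lipids and cholesterol in the nucleus. Most distal open chromatin in a cell is enhancer or insulator sequence, held free of nucleosomes by bound transcription factors. In erythroid cells the factor GATA1 binds the letters AGATAA together with TAL1, LMO2 and LDB1, often where part of an E-box stands a short way before them. AP-1, a dimer of FOS and JUN proteins, binds TGANTCA and follows growth signals, and CTCF binds a long insulator motif and anchors chromatin loops.

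The value compared was the summit pileup, the number of tags stacked at the peak's highest point in libraries that the authors had sampled down to the same number of tags. It is a property of a bulk culture, in which fewer cells with an open region and a less open region in every cell cannot be told apart. The lines were compared on log2(pileup + 1) after scaling of the libraries, with limma, and a region was called lower or higher when its adjusted p did not pass 0.05 and the difference reached 2-fold. A region had to keep a peak in every library to belong here, so a region that closed fully in 1 line is not among them.

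The sequences of 7 constant distal regions carry what follows, and each is shown as 300 bases of the plus strand of GRCh38 around the region's highest summit. The first 4 hold the TAL1-GATA composite, CTGNNNNNNNNAGATAA on either strand, which is in capitals. OSBPL10 intron (chr3:32074251-32074550), SLC9A9 intron (chr3:143283435-143283734) and TFRC upstream (chr3:196108267-196108566) had far fewer tags in G-K562 than in the other lines. TOR1B upstream (chr9:129790379-129790678) is shown because it holds the same motif and varied least among regions above the median pileup.

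OSBPL10 intron: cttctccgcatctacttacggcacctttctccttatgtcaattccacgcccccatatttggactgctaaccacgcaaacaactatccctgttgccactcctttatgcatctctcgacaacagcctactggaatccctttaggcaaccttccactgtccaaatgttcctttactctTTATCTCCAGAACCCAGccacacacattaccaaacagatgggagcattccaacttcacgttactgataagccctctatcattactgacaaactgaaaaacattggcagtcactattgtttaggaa

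SLC9A9 intron: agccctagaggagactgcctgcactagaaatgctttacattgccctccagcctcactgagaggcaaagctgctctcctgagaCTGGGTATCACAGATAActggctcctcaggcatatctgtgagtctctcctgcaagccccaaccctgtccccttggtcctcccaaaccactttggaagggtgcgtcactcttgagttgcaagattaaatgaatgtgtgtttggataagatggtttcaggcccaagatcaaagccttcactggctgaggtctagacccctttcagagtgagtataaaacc

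TFRC upstream: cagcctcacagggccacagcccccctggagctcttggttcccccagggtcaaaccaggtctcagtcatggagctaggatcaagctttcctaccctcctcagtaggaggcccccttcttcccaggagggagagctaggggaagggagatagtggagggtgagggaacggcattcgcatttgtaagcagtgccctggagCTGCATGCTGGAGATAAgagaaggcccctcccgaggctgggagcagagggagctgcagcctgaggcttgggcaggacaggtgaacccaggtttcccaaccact

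TOR1B upstream: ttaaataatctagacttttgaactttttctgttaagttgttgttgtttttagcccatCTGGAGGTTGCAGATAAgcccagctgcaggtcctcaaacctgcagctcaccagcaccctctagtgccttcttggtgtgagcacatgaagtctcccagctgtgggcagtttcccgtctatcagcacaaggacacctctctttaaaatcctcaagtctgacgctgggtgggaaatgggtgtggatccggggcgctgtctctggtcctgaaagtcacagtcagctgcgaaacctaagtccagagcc

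The other 3 hold the AP-1 motif TGANTCA, in capitals. ABL1 intron (chr9:130860843-130861142) and VEGFA downstream (chr6:43798827-43799126), with 2 AP-1 motifs, had fewer tags in B-K562. CDHR3 intron (chr7:106018699-106018998) had the largest fall of any constant distal region in G-K562.

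ABL1 intron: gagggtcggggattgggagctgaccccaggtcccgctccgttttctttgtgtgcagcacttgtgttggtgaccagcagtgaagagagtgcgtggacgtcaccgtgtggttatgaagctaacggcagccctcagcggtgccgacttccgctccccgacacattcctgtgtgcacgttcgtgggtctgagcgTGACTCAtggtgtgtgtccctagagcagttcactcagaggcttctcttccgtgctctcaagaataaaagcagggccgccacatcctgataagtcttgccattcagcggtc

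VEGFA downstream: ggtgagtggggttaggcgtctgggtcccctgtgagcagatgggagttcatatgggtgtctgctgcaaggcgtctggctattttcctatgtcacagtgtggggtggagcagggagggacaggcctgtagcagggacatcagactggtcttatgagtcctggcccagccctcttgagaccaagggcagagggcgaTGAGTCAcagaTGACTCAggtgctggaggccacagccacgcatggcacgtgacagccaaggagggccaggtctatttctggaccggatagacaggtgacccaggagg

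CDHR3 intron: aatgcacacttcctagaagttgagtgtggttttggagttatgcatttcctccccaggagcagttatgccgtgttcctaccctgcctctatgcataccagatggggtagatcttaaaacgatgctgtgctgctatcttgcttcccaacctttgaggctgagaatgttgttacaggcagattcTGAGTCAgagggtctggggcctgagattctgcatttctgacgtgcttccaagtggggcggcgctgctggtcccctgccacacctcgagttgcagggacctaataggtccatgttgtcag

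A motif match describes letters in the window and is not a measured binding site. In the 300 bases around the summit, the TAL1-GATA composite was found in 419 constant distal regions (2.89%), in 0.655% of the constant regions within 5 kb of a gene start and in 2.38% of all 85549 regions. The GATA motif AGATAA, which every composite contains, was found in 24.3%, 7.03% and 23.4% in the same order. AP-1 (TGANTCA) was found in 25.6%, 7.72% and 20.1%, and the CTCF core (CCANNAGNNGGC) in 12.9%, 6.08% and 8.23%. The other motifs searched on both strands were RUNX (TGTGGT; 24.2%, 10.9% and 22.0%), E-box (CACGTG; 6.41%, 9.67% and 6.32%), KLF (CCACACCC; 4.97%, 3.60% and 4.16%), EGR/WT1 (GCGNGGGCG; 2.63%, 13.6% and 3.77%), octamer (ATGCAAAT; 1.87%, 1.30% and 1.76%), ETS (CCGGAAGT; 1.06%, 7.49% and 1.61%) and CRE (TGACGTCA; 0.712%, 3.42% and 0.964%). Of the matches in distal regions, 44.4% of GATA, 56.2% of AP-1, 58.8% of CTCF and 57.7% of composite matches lay within 50 bp of the summit.

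The constant distal regions were narrow, AT-richer sites with pileups below those near gene starts. Their median width was 478 bp (quartiles 412 to 596 bp) against 680 bp, the median GC content of the 300-base window 52.7% against 65.3%, and the median number of CpG dinucleotides 6 against 25. The median distance from a gene start was 25.7 kb (quartiles 12.7 to 54.1 kb). By the GENCODE annotation, 44.6% had their summit in an intron of a protein-coding gene, 33.7% between genes, 9.79% in an intron of another gene, 5.32% in another exon, 4.24% in a UTR and 2.30% in a coding exon. Since GENCODE lists more transcripts than the RNA-seq tables, 2265 (15.6%) lay within 500 bp of some annotated transcript start. The 9 highest summits of a region lay within 200 bp of each other in 13522 regions (93.4%).

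Median pileup per library at the distal regions was 57, 59 and 58 tags in V-K562, 57, 53 and 54 tags in B-K562 and 62, 56 and 59 tags in G-K562. Near gene starts it was 83, 89 and 87 tags in V-K562, 110, 110 and 109 tags in B-K562 and 126, 130 and 134 tags in G-K562. The distal medians of the lines overlapped while those near gene starts did not, with every B-K562 and G-K562 library above every V-K562 library. Within a library, where scaling has no part, the pileup near gene starts was 1.46 to 1.51 times that at distal regions for V-K562, 1.93 to 2.08 times for B-K562 and 2.03 to 2.32 times for G-K562. Neither BASP1 line overlapped V-K562 in this ratio, while B-K562 and G-K562 overlapped each other. The replicate SD of a distal region (log2, median over regions) was 0.20 in V-K562, 0.19 in B-K562 and 0.20 in G-K562.

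**Figure D1:**
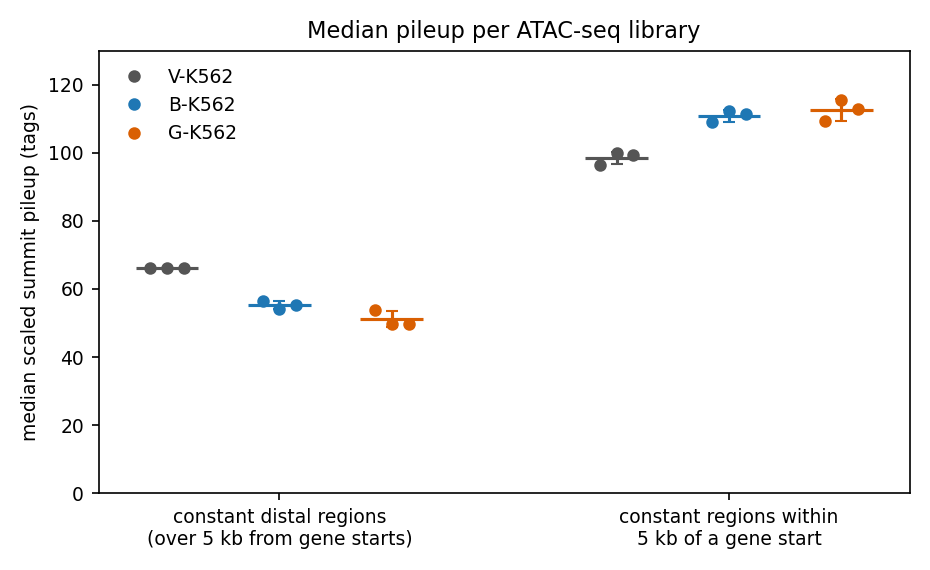
Median scaled summit pileup (tags, vertical axis) of the constant distal regions (left) and of the constant regions within 5 kb of a gene start (right) in each ATAC-seq library. Each point is a library, lines are the mean of the 3 libraries of a line and bars the SD; after scaling, the distal medians lie at 66.2 to 66.3 tags (V-K562), 54.1 to 56.5 tags (B-K562) and 49.7 to 53.8 tags (G-K562).

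Against V-K562, B-K562 had 763 constant distal regions lower (5.27%) and 75 higher (0.518%). Of all 52204 regions tested in this comparison, 6.23% were lower and 1.51% higher. Of the constant regions near gene starts, 0.711% were lower and 0.304% higher, and of the tested regions that were not constant 9.51% and 2.67%. The distal regions, chosen for a peak in every library, lay somewhat below all regions tested in both directions. Their median log2 difference was -0.15, with quartiles of -0.47 and 0.12, beside 0.19 near gene starts and -0.07 over all regions tested. With no scaling beyond equal tags the distal median was -0.001, and 445 were lower and 129 higher.

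G-K562 had 1968 of the distal regions lower than V-K562 (13.6%) and 174 higher (1.20%). Over the 54213 regions tested, 13.3% were lower and 2.81% higher, so the share of distal regions that fell was close to the background. The median distal difference was -0.20 (quartiles -0.64 and 0.15), beside 0.25 near gene starts and -0.10 over all regions tested, and it turned to 0.15, with 1027 lower and 721 higher, when no scaling beyond equal tags was applied. The difference between the distal and the near median was -0.34 in B-K562 and -0.46 in G-K562 and does not depend on a common factor per library; scaling within bins of GC content brought it to -0.12 and -0.15.

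Compared directly in a fit of all 9 libraries, G-K562 was below B-K562 at 1463 distal regions (10.1%) and above it at 586 (4.05%). Of the 60181 regions tested, 8.62% were lower and 4.23% higher, and of the constant regions near gene starts 1.99% and 1.18%. The distal median was -0.04. It turned to 0.17, with 1065 lower and 1049 higher, when no scaling was applied, and to 0.004 when scaled within bins of GC content. Both BASP1 lines were compared with the same V-K562 libraries, so the calls of each are given side by side. In all, 11206 distal regions (77.4%) were called in none of the 3 comparisons. This share was not taken for all regions tested or for those near gene starts, so it is not shown to be particular to distal regions.

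The difference from V-K562 changed with distance from the gene start, in steps that run through the 5 kb limit. Regions within 200 bp of a gene start had a median of 0.23 in B-K562 and 0.31 in G-K562. Distal regions 5 to 10 kb away had -0.09 and -0.12, those 20 to 50 kb away -0.17 and -0.22, and those over 100 kb away -0.21 and -0.38. The share called lower in G-K562 was 9.85% at 5 to 10 kb and 19.7% beyond 100 kb, and in B-K562 3.75% and 8.46%. The 2265 regions near a GENCODE transcript start had medians of 0.03 in B-K562 and 0.05 in G-K562, against -0.19 and -0.25 in the other 12209. The zero line of these medians is set by the scaling, as above.

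**Figure D2:**
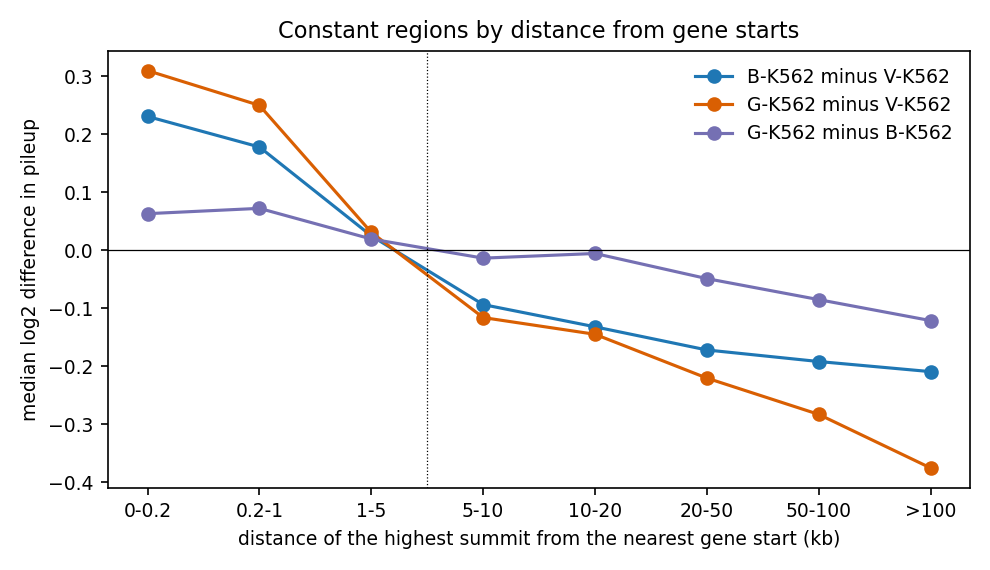
Median log2 difference in scaled summit pileup (vertical axis) of constant regions by distance of the summit from the nearest gene start (kb, horizontal axis), for the 3 comparisons. The dotted line is the 5 kb limit, to the right of which lie the 14474 distal regions; the G-K562 minus V-K562 median goes from 0.31 within 200 bp to -0.38 beyond 100 kb.

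GC content moved with both distance and pileup difference. In 5 classes of GC content, from the lowest (22.3 to 46.3%) to the highest (61.0 to 86.0%), the distal median in G-K562 against V-K562 went from -0.50 to 0.17 and the share called lower from 24.5% to 1.52%. In B-K562 it went from -0.32 to 0.10 and from 9.35% to 0.814%. Within each class the distal regions stayed below those near gene starts of the same GC content, by values such as -0.19 against 0.04 in the middle class for B-K562 and -0.26 against 0.01 for G-K562. The part of GC content in the other differences was not tested beyond the values given beside them.

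Distal regions with the GATA motif had a lower pileup in G-K562 and those with the TAL1-GATA composite a still lower one. The 419 composite regions had median pileups of 94, 97 and 91 tags in V-K562, 103, 97 and 94 tags in B-K562 and 60, 53 and 52 tags in G-K562. The G-K562 libraries lay below all 6 others before any scaling, while V-K562 and B-K562 overlapped. Of these regions, 216 (51.6%) fell from V-K562 to G-K562 and 1 rose, against falls in 12.5% of the distal regions without the composite. Against B-K562, 180 (43.0%) were lower and 3 (0.716%) higher, beside 9.13% and 4.15% of the distal regions without the composite. In B-K562 against V-K562, 7 (1.67%) were lower and 3 (0.716%) higher, beside 5.38% and 0.512% without it.

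The median log2 difference of the composite regions was -1.03 in G-K562 against V-K562 and -0.08 in B-K562 against V-K562, beside -0.19 and -0.16 for distal regions without it. All 3511 regions with AGATAA had -0.62 in G-K562, beside -0.11 for the 10963 without it, and 1093 (31.1%) were lower, beside 7.98%. In B-K562 the medians with and without AGATAA were -0.17 and -0.15, an order that turned when scaled within bins of GC content.

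The number of GATA motifs in the window ordered the G-K562 differences. The median was -0.11 with none, -0.54 with 1, -0.92 with 2 (586 regions) and -1.25 with 3 or more (72 regions), and 62.5% of the last were lower. In B-K562 the same classes had medians of -0.15, -0.19, -0.14 and -0.07, with no such order. Regions with more GATA motifs also had a higher pileup in V-K562, from a mean of 62.6 scaled tags (median over regions) with none to 103 with 3 or more.

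Base composition and pileup moved with the motif, so the gap between regions with and without it was taken within classes of each. Within the 5 classes of GC content, the median with AGATAA minus that without it was -0.27 to -0.38 in G-K562 against V-K562, and that of the composite -0.55 to -1.13, the last in a class with 12 composite regions. Within 5 classes of pileup in B-K562, which has no part in that comparison, the gap was -0.20 to -0.86 for AGATAA and -0.58 to -0.95 for the composite. The sign held in every class. For B-K562 against V-K562 the gaps within the classes of GC content were small and above 0 in each. They were 0.07 to 0.11 for AGATAA and 0.06 to 0.32 for the composite, the last again in the class with 12 composite regions.

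Near gene starts, 82 constant regions held the composite, and their median in G-K562 against V-K562 was -0.67, beside 0.26 for those without it. A lower median with the composite was therefore measured on both sides of the 5 kb limit.

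**Figure D3:**
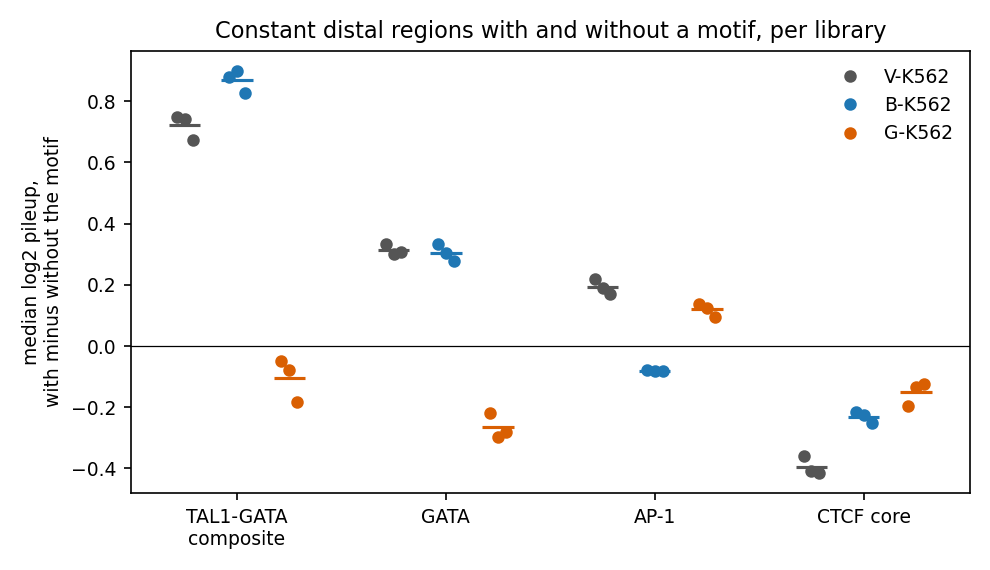
Median log2 pileup of constant distal regions with a motif minus that of regions without it (vertical axis), for 4 motifs in each of the 9 ATAC-seq libraries; points are libraries and lines the mean of a line. For the composite the value is 0.67 to 0.75 for V-K562, 0.83 to 0.90 for B-K562 and -0.18 to -0.05 for G-K562, and for AP-1 0.17 to 0.22, -0.08 in each and 0.10 to 0.14.

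Per library, distal regions with AGATAA stood above those without it by 0.30 to 0.33 (log2) in V-K562 and 0.28 to 0.33 in B-K562. In G-K562 the difference was -0.30 to -0.22. The 3 G-K562 libraries had the opposite sign from the other 6.

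**Figure D4:**
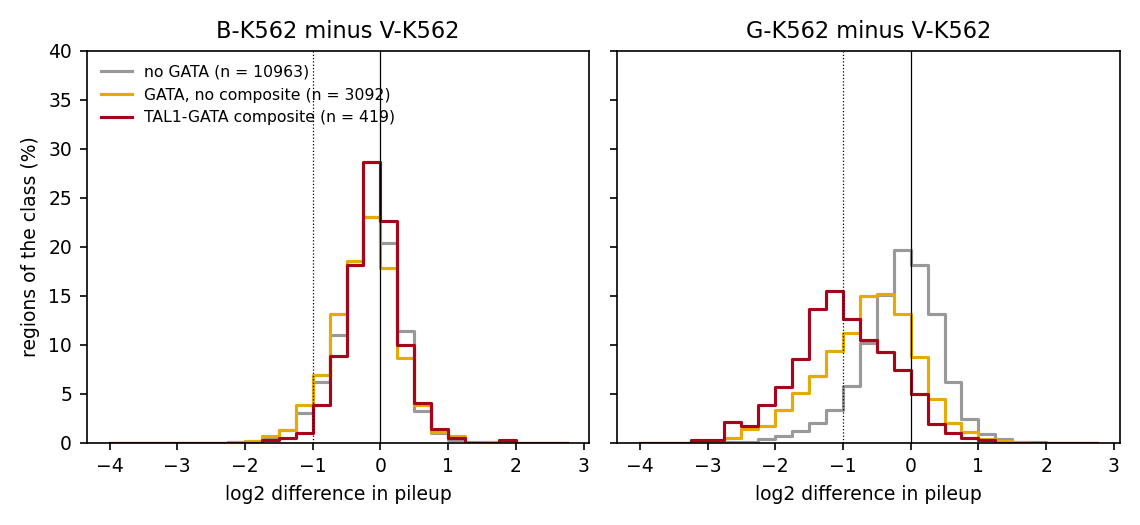
Share of regions (%, vertical axis) by log2 difference in pileup (horizontal axis, steps of 0.25) for 419 composite regions, 3092 regions with AGATAA but no composite and 10963 with neither, in B-K562 (left) and G-K562 (right) against V-K562. The dotted line marks a 2-fold fall; the medians are -1.03 for the composite and -0.11 without GATA in G-K562, and -0.08 for the composite in B-K562.

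Individual composite regions showed the fall in every G-K562 culture. The region in an intron of OSBPL10, a lipid-binding protein gene (chr3:32074099-32074750), had 152, 166 and 173 tags in V-K562, 174, 196 and 205 tags in B-K562 and 22, 25 and 27 tags in G-K562. The G-K562 cultures did not come near the others, with a log2 difference from V-K562 of -3.04 ± 0.14 (SE, adjusted p = 0.00011), while B-K562 differed by 0.07 ± 0.10 (adjusted p = 0.64). Its nearest gene start is that of GPD1L, an enzyme of glycerol phosphate metabolism, 32.1 kb away. GPD1L RNA was 1776, 1911 and 1889 normalised counts in V-K562 and 369, 379 and 341 in G-K562, a log2 difference of -2.35. It was lower in B-K562 too, with 1217, 1201 and 1151 against 1749, 1883 and 1851 in V-K562 (-0.62 ± 0.05), short of 2-fold. OSBPL10 RNA itself was low, with 35, 46 and 38 normalised counts in V-K562 and 7, 11 and 10 in G-K562. The log2 difference was -1.99 ± 0.26 in G-K562 (limma, adjusted p = 3.58e-05) and -0.65 ± 0.22 in B-K562 (adjusted p = 0.016).

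In an intron of SLC9A9, a sodium-proton exchanger gene (chr3:143283274-143283865), the tags were 90, 112 and 83 in V-K562, 228, 261 and 198 in B-K562 and 22, 28 and 17 in G-K562. The 3 lines were apart in opposite directions, with 1.11 ± 0.14 in B-K562 (adjusted p = 0.0024) and -2.34 ± 0.21 in G-K562 (adjusted p = 0.0003) against V-K562. The rise in B-K562 was short of 2-fold (0.93 and 0.97) when scaled near gene starts or measured by mean pileup.

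TFRC encodes the transferrin receptor, which brings iron into erythroid cells. The composite region 26.3 kb before its start (chr3:196108170-196108772) had 156, 145 and 161 tags in V-K562, 166, 174 and 148 in B-K562 and 65, 72 and 59 in G-K562. This was a log2 difference of -1.59 ± 0.13 in G-K562 (adjusted p = 0.00023) and -0.08 ± 0.10 in B-K562 (adjusted p = 0.58). TFRC RNA went the other way in G-K562, from 20453, 22731 and 20919 to 35087, 28864 and 31068 normalised counts. The difference was 0.56 ± 0.08 on the log2 scale (limma, adjusted p = 4.99e-05), short of 2-fold. In B-K562 TFRC RNA was higher by 0.90 ± 0.05, also short of 2-fold.

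NFE2, an erythroid partner of the small MAF proteins, has a composite region in its own intron, 5.17 kb inside its outer start and 112 bp from an annotated transcript start. It had 246, 237 and 261 tags in V-K562, 265, 271 and 218 in B-K562 and 153, 150 and 128 in G-K562, a log2 difference of -1.15 ± 0.11 in G-K562 (adjusted p = 0.00033). The composite region 86.5 kb before KIT, the stem cell factor receptor gene, had 149, 149 and 152 tags in V-K562, 170, 127 and 150 in B-K562 and 89, 85 and 93 in G-K562, a difference of -1.11 ± 0.09 (adjusted p = 0.00023). Both stayed below V-K562 under every setting, but by less than 2-fold without scaling (-0.79 and -0.75), under GC scaling (-0.95 and -0.84) and by mean pileup (-0.94 and -0.89). RNA of NFE2 and KIT differed by -0.71 ± 0.06 and -0.82 ± 0.11 in G-K562 and by -0.14 ± 0.05 and -0.34 ± 0.09 in B-K562, all short of 2-fold.

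Composite regions without a call were found too. One was the region 12.6 kb before TOR1B, an endoplasmic reticulum ATPase gene (chr9:129790077-129790770), with 202, 212 and 221 tags in V-K562, 247, 233 and 230 in B-K562 and 288, 278 and 298 in G-K562. After scaling, its log2 values spanned 0.10 over the 9 libraries, the smallest range of any distal region above the median pileup. The difference from V-K562 was 0.00 ± 0.07 in B-K562 and 0.08 ± 0.07 in G-K562 (adjusted p = 0.97 and 0.36).

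**Figure D5:**
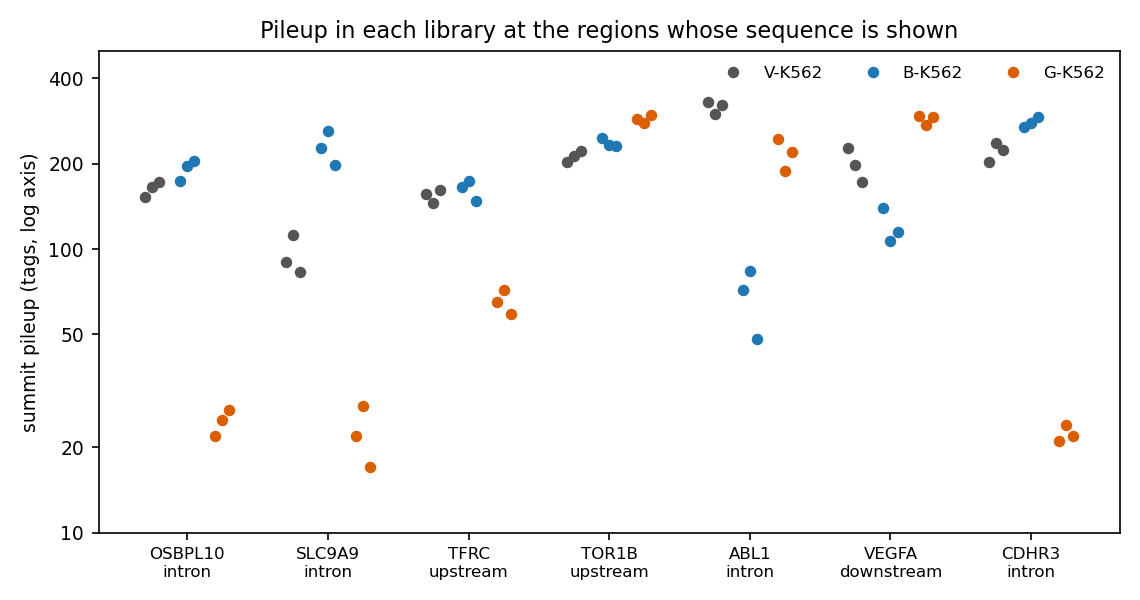
Summit pileup (tags as deposited, log axis) in each of the 9 ATAC-seq libraries at the 7 constant distal regions whose sequences are given; each point is a library. G-K562 lies lowest at the OSBPL10, SLC9A9, TFRC and CDHR3 regions (17 to 72 tags), and B-K562 lowest at the ABL1 and VEGFA regions (48 to 139 tags).

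RNA of the factors named for the composite was lower in G-K562, mostly by less than 2-fold. GATA1 was 8207, 8194 and 8196 normalised counts in V-K562 and 5819, 5560 and 5347 in G-K562, TAL1 6449, 7224 and 7673 against 4222, 3886 and 4230, and LMO2 1909, 1783 and 1732 against 749, 848 and 677. The log2 differences were -0.56 ± 0.05, -0.79 ± 0.07 and -1.26 ± 0.08 (limma, adjusted p of 3.01e-06, 1.66e-06 and 1.74e-07), of which LMO2 alone passed 2-fold. LDB1, which joins such complexes, had -0.53 ± 0.06, and GATA2, a related GATA factor, 0.04 ± 0.06 (adjusted p = 0.59). In B-K562 these 5 genes had differences of 0.22, 0.25, 0.40, 0.48 and 0.40 in the order GATA1, TAL1, LMO2, LDB1 and GATA2, all under 2-fold. The part of these RNA levels in the pileups was not tested.

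Of the 14 K562 marker genes checked, all measured in each line, 9 were lower in G-K562 (10.3% of all genes tested were) and 0 higher (8.81%). In B-K562, 0 were lower (14.1% of all genes tested) and 3 higher (6.46%). The embryonic globin gene HBZ, for example, had 3333, 2995 and 2223 normalised counts in V-K562 and 466, 622 and 385 in G-K562. In the table normalised for the other line it had 3283, 2950 and 2179 in V-K562 and 13104, 12872 and 12751 in B-K562. Summed over the list, the markers had 138094 to 155040 normalised counts in V-K562 and 75123 to 81618 in G-K562, with the globin copies HBG1 and HBG2, and HBA1 and HBA2, uncertain since near-identical genes share reads. Of 9 markers of other blood cells, MS4A1 was at 0 in every library. Their sum was 1942 to 2150 in V-K562 against 4146 to 4623 in G-K562, where LYZ made up 3772 to 4301, and 1902 to 2117 in V-K562 against 1549 to 1661 in B-K562. In G-K562, 1 of the 6 tested was lower and 2 higher, and in B-K562 2 of the 5 tested were lower and 0 higher. BASP1 itself had 5 to 7 normalised counts in V-K562. It reached 6189 to 6849 in B-K562, and the G-K562 libraries held 8124 to 12538.

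Distal regions with the AP-1 motif were the class with the lower pileup in B-K562. Among the 3703 of them, 378 (10.2%) fell from V-K562 to B-K562 and 10 rose, against falls in 3.57% without the motif, and the median difference was -0.34 against -0.10. With 2 or more AP-1 motifs (649 regions) it was -0.43, with 14.5% lower. Per library, regions with AP-1 stood above those without it by 0.17 to 0.22 in V-K562 and 0.10 to 0.14 in G-K562. The difference was -0.08 in each B-K562 library.

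In G-K562 against V-K562 the AP-1 medians were -0.31 with and -0.17 without the motif, a gap that turned to 0.01 when scaled within bins of GC content. In B-K562 the gap was -0.16 to -0.21 within each class of GC content and -0.22 to -0.28 within each class of pileup in G-K562, which has no part in that comparison. The 2698 regions with AP-1 and no GATA had median pileups of 62, 63 and 62 tags in V-K562, 52, 49 and 50 in B-K562 and 69, 62 and 65 in G-K562. Their B-K562 libraries lay below the other 6.

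The RNA of AP-1 subunits did not move in 1 direction. In B-K562, FOS had 928, 1240 and 1100 normalised counts against 631, 555 and 524 in V-K562 (0.93 ± 0.10, adjusted p = 1.14e-06), and JUN 4590, 4918 and 4740 against 5134, 5434 and 5714 (-0.19 ± 0.05, adjusted p = 0.0036), neither 2-fold. FOS was higher in G-K562 (1.65 ± 0.37, adjusted p = 0.002), with a wide spread of 1557, 3993 and 959. FOSL1 and JUNB had 0.63 and -0.17 in B-K562, and JUND and BACH1, a repressor that shares part of the AP-1 motif, -0.03 and -0.02, with adjusted p of 0.57 and 0.67 for the last pair. NFE2, also among the factors chosen for the motifs searched, had -0.14 ± 0.05 in B-K562 and -0.71 ± 0.06 in G-K562. Neither was 2-fold (limma, adjusted p of 0.017 and 1.82e-06). The part of these levels in the pileups was not tested.

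The third largest fall in B-K562 was an AP-1 region in the intron of ABL1, the kinase gene fused to BCR in K562 (chr9:130860753-130861245). Its tags were 331, 299 and 321 in V-K562, 72, 84 and 48 in B-K562 and 245, 189 and 219 in G-K562. B-K562 was far below both other lines, by -2.40 ± 0.18 against V-K562 (adjusted p = 0.00097), and G-K562 differed from V-K562 by -0.91 ± 0.10 (adjusted p = 0.00057), short of 2-fold. ABL1 RNA was 10585, 10547 and 10273 in B-K562 and 7649, 9359 and 9193 in V-K562, a difference of 0.27 ± 0.07 (adjusted p = 0.0023).

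A larger fall, and an AP-1 region as well, lay in the intron of a non-coding gene on chromosome 2, 894 kb from the nearest gene start (chr2:145693038-145693546). It had 152, 168 and 144 tags in V-K562, 20, 37 and 30 in B-K562 and 63, 64 and 42 in G-K562, and fell in both BASP1 lines (-2.57 ± 0.22 and -1.82 ± 0.19, adjusted p of 0.0012 and 0.00045). A region in an intron of TBC1D5, a gene of endosome recycling (chr3:18208824-18209367), did so too, with 214, 197 and 160 tags in V-K562, 37, 38 and 42 in B-K562 and 86, 57 and 55 in G-K562 (-2.40 ± 0.14 and -1.89 ± 0.20, adjusted p of 0.00084 and 0.00046). It holds a GATA, a RUNX and an E-box motif and no AP-1 motif.

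VEGFA, which drives vessel growth, had 10 distal regions within 100 kb of its start. The one 28.8 kb downstream of the start, with 2 AP-1 motifs (chr6:43798736-43799258), had 227, 198 and 172 tags in V-K562, 139, 107 and 115 in B-K562 and 294, 274 and 291 in G-K562. The deposited tags of the lines did not overlap, but the scaled values of V-K562 (mean 227.5, SD 34.1) and G-K562 (mean 247.9, SD 6.29) were close, and the differences from V-K562 were -0.88 ± 0.13 in B-K562 (adjusted p = 0.0041) and 0.17 ± 0.11 in G-K562 (adjusted p = 0.26). G-K562 was higher than B-K562 by 1.03 ± 0.12 (adjusted p = 0.00018), a call that was lost by mean pileup, with the larger pseudocount, when scaled near gene starts or without B-K562 replicate 2 (0.95). VEGFA RNA differed by -2.27 on the log2 scale in B-K562, going from 16137, 16215 and 17513 to 3373, 3431 and 3492 normalised counts. In G-K562 it was lower as well, with 11435, 11885 and 11977 against 16384, 16463 and 17868 in V-K562 (-0.52 ± 0.06), short of 2-fold.

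AREG, which encodes the EGF receptor ligand amphiregulin and is a WT1 target, had 1 distal region, 21.8 kb before its start and with an AP-1 motif (chr4:74423089-74423551). Its tags were 55, 74 and 66 in V-K562, 21, 22 and 28 in B-K562 and 56, 24 and 53 in G-K562. B-K562 lay below V-K562 in every culture (-1.57 ± 0.21, adjusted p = 0.0029), and the difference in G-K562 was -0.98 ± 0.31 (adjusted p = 0.037), short of 2-fold, with scaled means of 74.1 tags in V-K562 and 38.2 in G-K562. AREG RNA was 322, 310 and 339 in V-K562 and 53, 56 and 53 in B-K562, a difference of -2.56, and 457, 479 and 468 in G-K562 against 327, 314 and 345 in V-K562.

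Both distal regions near MYB, a factor of immature blood cells, were lower in B-K562. The one 33.4 kb before MYB, with a GATA motif, had 45, 34 and 49 tags in V-K562, 22, 18 and 22 in B-K562 and 47, 40 and 38 in G-K562 (-1.15 ± 0.22 in B-K562, adjusted p = 0.0085), a call lost under GC scaling (-0.85), with a pseudocount of 8 (-0.94) and by mean pileup (-0.95). The one 96.6 kb before it, in an intron of HBS1L and with an AP-1 motif, had 84, 71 and 73 tags in V-K562, 41, 30 and 28 in B-K562 and 60, 95 and 58 in G-K562 (-1.35 ± 0.20, adjusted p = 0.0035). MYB RNA had a difference of -0.33 ± 0.05 in B-K562.

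The distal region 98.0 kb before the outer start of BASP1 also holds an AP-1 motif. It had 143, 112 and 101 tags in V-K562, 69, 57 and 40 in B-K562 and 120, 111 and 87 in G-K562, a difference of -1.26 ± 0.21 in B-K562 (adjusted p = 0.0057). By mean pileup that difference was -0.96, short of 2-fold.

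Regions with the CTCF core were seldom called. The 1861 distal regions with the CTCF core had medians of -0.09 in B-K562 and -0.11 in G-K562 against V-K562, with 19 (1.02%) and 52 (2.79%) lower and 2 and 11 higher. Without the motif 5.90% and 15.2% were lower. Within the lowest class of GC content the medians with and without the core were -0.24 and -0.33 in B-K562 and -0.29 and -0.52 in G-K562. Within the highest class the order was reversed, with 0.05 and 0.11 in B-K562 and 0.06 and 0.18 in G-K562. CTCF RNA was 2975, 3055 and 3005 normalised counts in B-K562 against 1531, 1510 and 1486 in V-K562, a difference of 0.997 ± 0.05 that stopped just short of 2-fold, and differed by 0.57 ± 0.06 in G-K562. The part of CTCF RNA in the pileups was not tested.

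RUNX regions did not stand apart, with medians of -0.18 in B-K562 and -0.21 in G-K562, beside -0.15 and -0.20 without the motif. The 380 distal regions with the EGR/WT1 motif had medians of 0.15 and 0.23, beside -0.16 and -0.22 without it, and a median GC content of 70.8% against 52.3%. Octamer regions, which match the POU factor motif, had -0.17 and -0.29, beside -0.15 and -0.20, and 22 of 270 (8.15%) were lower in B-K562, beside 5.22% without the motif and 6.23% of all regions tested, and 33 (12.2%) in G-K562, beside 13.6% without it. RNA of the POU factor POU3F2 rose in both lines (by 3.44 and 2.29 on the log2 scale, from 8 to 15 normalised counts in V-K562), and its part in these pileups was not tested.

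The largest fall of all was in an intron of CDHR3, a cadherin gene (chr7:106018578-106019183), which holds an AP-1 and a RUNX motif and no GATA. It had 202, 236 and 223 tags in V-K562, 269, 278 and 291 in B-K562 and 21, 24 and 22 in G-K562. The log2 difference was -3.60 ± 0.13 in G-K562 (adjusted p = 0.0001) and 0.19 ± 0.08 in B-K562 (adjusted p = 0.13). A region between genes on chromosome 6 with a GATA motif (chr6:16031135-16031787) had 227, 208 and 225 tags in V-K562, 254, 240 and 214 in B-K562 and 41, 24 and 33 in G-K562 (-3.10 ± 0.18, adjusted p = 0.00016).

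In an intron of AAAS, a nuclear pore protein gene, a GATA region 218 bp from an annotated transcript start (chr12:53309805-53310426) had 98, 107 and 78 tags in V-K562, 194, 216 and 210 in B-K562 and 22, 26 and 18 in G-K562. G-K562 was below V-K562 (-2.36 ± 0.20, adjusted p = 0.00027), and B-K562 differed by 0.98 ± 0.13 (adjusted p = 0.0027), short of 2-fold. Like the SLC9A9 region, it had most tags in B-K562 and fewest in G-K562.

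Some regions went down in B-K562 and not in G-K562. In an intron of ERN1, the endoplasmic reticulum stress sensor IRE1, a GATA region 422 bp from an annotated transcript start (chr17:64081920-64082530) had 132, 107 and 102 tags in V-K562, 27, 25 and 30 in B-K562 and 205, 182 and 268 in G-K562 (-2.17 ± 0.17 in B-K562, adjusted p = 0.001). ERN1 RNA moved in the same directions, with 628, 671 and 819 normalised counts in V-K562 and 298, 321 and 320 in B-K562 (-1.16). In the G-K562 table it had 638, 681 and 835 in V-K562 and 1882, 1320 and 1899 in G-K562 (1.23).

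The region 325 kb from PPP1R3A, a glycogen phosphatase subunit gene (chr7:113593390-113594331), had 74, 52 and 54 tags in V-K562, 25, 18 and 25 in B-K562 and 185, 171 and 182 in G-K562. It was lower in B-K562 (-1.52 ± 0.24, adjusted p = 0.0045) and higher in G-K562 (1.22 ± 0.16, adjusted p = 0.00099), and the second call was lost (0.97, 0.98 and 0.85) under GC scaling, scaling near gene starts and mean pileup.

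Rises were fewer and smaller. The largest in G-K562 lay 7.98 kb from the start of LY6E, an interferon-induced surface protein gene (chr8:143026168-143026717), with 28, 44 and 42 tags in V-K562, 65, 80 and 82 in B-K562 and 253, 218 and 265 in G-K562 (2.32 ± 0.17, adjusted p = 0.0002). LY6E RNA rose in G-K562 from 2226, 1872 and 1904 to 6642, 6112 and 6468 normalised counts, by 1.68 on the log2 scale. Regions 14.6 kb from OR1D5 (29, 21 and 30 tags in V-K562, 129, 153 and 138 in G-K562) and 71.5 kb from CD2 (64, 62 and 57 against 315, 236 and 310) rose by 2.01 and 1.85 (SE 0.19 and 0.12, adjusted p of 0.00034 and 0.00018), and both genes had 4 normalised counts or fewer in every library.

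The largest rise in B-K562 was at a GATA region between genes on chromosome 5 (chr5:106246365-106247178), with 13, 24 and 14 tags in V-K562, 104, 72 and 73 in B-K562 and 18, 36 and 29 in G-K562 (1.95 ± 0.24, adjusted p = 0.0024). A region in an intron of NOTCH3 had 23, 42 and 37 tags in V-K562, 125, 141 and 141 in B-K562 and 117, 101 and 100 in G-K562, higher in both (1.85 ± 0.21 and 1.30 ± 0.22, adjusted p of 0.0021 and 0.0032), the second short of 2-fold (0.77) by mean pileup. A region in an intron of LMCD1-AS1 had 20, 22 and 17 tags, 83, 71 and 86 tags and 29, 22 and 19 tags in the same order and was higher in B-K562 alone (1.82 ± 0.20, adjusted p = 0.0019). Scaled values under 17 tags were set to 17 in the fits, which makes the rise on chromosome 5 smaller than its tags. The same holds for the G-K562 falls at the SLC9A9 and AAAS regions.

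Of 22 genes of erythroid and leukemic biology and of the WT1 and BASP1 axis, 19 had constant distal regions within 100 kb, and none was found near TAL1, MYC or BCL11A. These were 91 regions, of which 4 (4.40%) were lower and 0 higher in B-K562, beside 6.23% and 1.51% of all regions tested. In G-K562 11 (12.1%) were lower and 1 (1.10%) higher, beside 13.3% and 2.81%. When G-K562 was set against B-K562, 12 (13.2%) were lower and 3 (3.30%) higher, beside 8.62% and 4.23%. GATA1 had 3, and the pair 7.94 kb and 8.58 kb downstream of its start, before HDAC6, had 69, 81 and 79, and 35, 39 and 37 tags in V-K562. They had 131, 107 and 150, and 61, 54 and 63 tags in B-K562, and 32, 28 and 28, and 24, 26 and 23 tags in G-K562. The G-K562 differences from V-K562 were -1.70 ± 0.15 (adjusted p = 0.00032) and -0.93 ± 0.16 (adjusted p = 0.0032), the second short of 2-fold.

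The region 6.03 kb inside the outer start of HBE1, the embryonic beta-like globin gene, had 146, 137 and 107 tags in V-K562. It had 129, 134 and 118 in B-K562 and 129, 136 and 108 in G-K562 (-0.18 ± 0.13 and -0.42 ± 0.16, adjusted p of 0.35 and 0.071). The one 6.34 kb before that outer start had 112, 113 and 95 tags, 128, 131 and 139 tags and 106, 91 and 67 tags (0.16 ± 0.11 and -0.65 ± 0.19, adjusted p of 0.31 and 0.026). G-K562 differed from B-K562 there by -0.83 ± 0.17 (adjusted p = 0.0046). None of these passed 2-fold. Of 7 near HBZ, 1 was lower in G-K562, at -1.19, and their median there was 0.16.

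LMO2, whose RNA fell, had 9 regions with a median of -0.15 in G-K562, 2 of them lower. GFI1B, a repressor of erythroid cells with an RNA difference of -1.98 in G-K562, had 7 with a median of -0.31, 1 of them lower, and KLF1, an erythroid activator with one of -1.48, had 7 with a median of 0.00 and no call. The region 57.2 kb before RUNX1, with a GATA motif, had 90, 72 and 74 tags in V-K562, 109, 130 and 129 in B-K562 and 69, 43 and 53 in G-K562, and G-K562 minus B-K562 was -1.38 ± 0.18 (adjusted p = 0.00035). BCR had 7, with medians of -0.24 in B-K562 and -0.76 in G-K562 and 1 lower in the latter.

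WT1 had 5 regions within 100 kb. The one in its intron 14.5 kb from the start had 29, 33 and 26 tags in V-K562, 37, 32 and 33 in B-K562 and 77, 75 and 106 in G-K562. It was higher in G-K562 by 1.15 ± 0.18 (adjusted p = 0.0024) and not in B-K562 (0.06 ± 0.19, adjusted p = 0.85), and by 0.91 when scaled near gene starts. WT1 RNA was 1286, 1190 and 1153 in V-K562 and 3218, 2906 and 3297 in G-K562, a rise of 1.37 ± 0.07 (adjusted p = 1.81e-08), and 0.20 ± 0.06 higher in B-K562.

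In 6754 constant distal regions (46.7%) both differences from V-K562 were within 0.5 on the log2 scale and no comparison was called. The share of other regions that met this was not taken. Besides the TOR1B region, the steadiest of above-median pileup were in an intron of PXT1 (216, 228 and 221 tags in V-K562, 279, 257 and 242 in B-K562 and 287, 298 and 300 in G-K562) and in a coding exon of PPM1F, a protein phosphatase gene (587, 559 and 551, 666, 681 and 611, and 736, 688 and 770 tags). The rise of their deposited tags from V-K562 to G-K562 is what the scaling removed, and their ranges after it were 0.16 and 0.18.

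The 3 highest pileups were a pair of regions near CBSL on chromosome 21, with 1478 to 1649 tags in V-K562 and 2049 to 2387 in G-K562, and a region 17.7 kb from RNU2-1 on chromosome 17, with 1154 to 1396 and 1088 to 1453 tags. CBSL is a near-copy of CBS and RNU2-1 a repeated gene, so the unique mapping of such regions is uncertain. None was called in a comparison.

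The limits of the set were gradual. Just over 5 kb lay regions near CELSR2 (51 to 64 tags in V-K562), USE1 (38 to 52) and SPATA20 (58 to 80), and just under it, and so left out, regions near CDKN1C (58 to 61), SIN3A (102 to 162) and TRW-CCA3-2 (109 to 128). The lowest single values as deposited were 11 tags near ISPD-AS1 and 12 near FGD4 and RPL23P8, and 564 regions had a deposited value below 17 tags in some library. Another 3613 distal regions had a peak in 8 of the 9 libraries, with a median of 32 tags where they had one, and 374, 271 and 312 of these were without a peak in V-K562 replicates 1, 2 and 3, 371, 534 and 505 in those of B-K562 and 274, 467 and 505 in those of G-K562.

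The constant distal regions were nearest to the starts of 8532 genes, 5223 of them nearest to a single region. Of the 5499 tested for RNA in B-K562, 891 (16.2%) were lower and 280 (5.09%) higher, close to the 14.1% and 6.46% of all genes. Where a region called lower in B-K562 was nearest, 124 of 464 tested genes (26.7%) were lower and 18 (3.88%) higher. In G-K562, 556 of 5609 (9.91%) were lower and 524 (9.34%) higher, beside 10.3% and 8.81% of all genes.

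Genes nearest to a region called lower in G-K562 were lower in 158 of 1138 cases (13.9%) and higher in 75 (6.59%), and those nearest to a region called higher were higher in 27 of 103 cases (26.2%) and lower in 5. For the 286 tested genes nearest to a composite region, 27 (9.44%) were lower and 40 (13.99%) higher in G-K562, beside 10.3% and 8.81% of all genes tested. The nearest gene is the nearest start and not a shown target.

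On chromosome 14 beyond 70 Mb, the 192 constant distal regions had a median of 0.39 in G-K562 against V-K562. Of these 29 (15.1%) were higher, beside 1.20% of all constant distal regions and 2.81% of all regions tested. The 147 before 70 Mb had a median of -0.20, with 2 (1.36%) higher. In B-K562 the medians were -0.001 and -0.15. Over the 23 chromosomes with at least 100 such regions, the G-K562 median ran from -0.36 on chromosome 10 to 0.06 on chromosome 14, and that of B-K562 from -0.25 on chromosome 6 to 0.01 on chromosome 16. The number of chromosome copies in each line was not measured, and copies and openness cannot be told apart in the pileup.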

How the data were processed

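Each of the 3 K562 lines was profiled in 3 cultures by ATAC-seq and in 3 by RNA-seq. The members of the set, the motifs and the gene lists were chosen with earlier results of these data known.

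For ATAC-seq, the authors used BWA-MEM on GRCh38, dropped duplicate and non-unique reads, brought all libraries to an equal tag number and ran MACS2 on each one, and the deposited signal is the pileup of tags at each summit, with its mean over the interval. The libraries have 47111 to 55570 peaks. The number of tags kept is not in the values used, and pileups are not counts of independent reads, so no counting interval is given. For RNA-seq, the authors aligned with STAR and used Subread to count over RefSeq genes. The deposited RNA-seq scores are counts that the authors divided by DESeq2 size factors, separately in each table, and rounded, so their sums (32074895 to 33229588 per library) do not show depth. A count test had been planned for raw counts; for these normalised values limma on log2(value + 1) was used, within a table, for genes that reached 10 in 3 or more of 6 libraries. The deposited columns of the authors' own fold changes and p-values were not used.

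Overlapping intervals were merged, and a region's value was its highest summit pileup in a library. Libraries were scaled by a trimmed mean (30% of log ratios, 5% of mean values) over regions that had a peak in each library compared. Scaled values below 17 tags and absent values were then set to 17, and regions with a peak in at least 3 libraries compared were tested. limma 3.58.1 (R 4.3.3) with a trended prior was fitted to log2(value + 1) over all regions, with Benjamini-Hochberg adjustment over all of them. B-K562 and G-K562 were each compared with V-K562 on 6 libraries, and with each other in a fit of all 9. The fits were tested on simulated data. Medians over regions carry no test. Motifs were searched on both strands of the 300 bases around the highest summit with Python 3.11.15 (numpy 2.4.6, pandas 2.3.3). The summits stand on a grid of 16 bp (99.1% of them), which blurs motif positions. Sequences are from the GRCh38 reference, features and transcript starts from GENCODE 44, and gene starts from the RefSeq coordinates in the RNA-seq tables.

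The regions named are the 3 highest in mean pileup, the 3 largest rises and falls of each comparison among called regions, the 3 of smallest range with a mean above the median, up to 2 closest to each of 22 listed genes within 100 kb, and those at the limits of the rule. Not all regions that this rule names are described in the text, and 1 item is not reported here. Genes named are their nearest genes, BASP1, WT1, the motif factors and the marker lists, and the genes that hold a named region in an intron or exon, which were added after values were seen. Alternatives were other scalings, filters, floors, pseudocounts, distances and start annotations, the mean pileup, the fold criterion, leaving out each culture, and the replicate number as a block.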

Additional observations from a re-analysis of the deposited data

Results flagged for a closer look

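Regions are listed here because G-K562 and B-K562, both set against V-K562, differed at them by the test of the difference itself (limma on all 9 libraries, called at an adjusted p of at most 0.05 and 2-fold). Values are the log2 difference of G-K562 minus B-K562. G-K562 was lower at the regions in the introns of CDHR3 near SYPL1 (-3.80, adjusted p = 1.65e-07), SLC9A9 (-3.45, adjusted p = 1.88e-06), AAAS near C12orf10 (-3.35, adjusted p = 1.42e-06) and OSBPL10 near GPD1L (-3.12, adjusted p = 6.21e-07), and at that near LOC101928406 (-3.06, adjusted p = 2.49e-06). It was lower at the pair before HDAC6 and beyond GATA1 (-2.31 and -1.46, adjusted p of 6.37e-06 and 0.000127), near LMCD1-AS1 (-1.94, adjusted p = 9.27e-05), LOC102467213 (-1.76, adjusted p = 0.00128), TFRC (-1.52, adjusted p = 1.45e-05), RUNX1 (-1.38, adjusted p = 0.00035) and NFE2 (-1.02, adjusted p = 0.000123). It was higher in the introns of ERN1 (2.72, adjusted p = 3.87e-06) and ABL1 near QRFP (1.47, adjusted p = 0.000249). The same held near PPP1R3A (2.72, adjusted p = 8.05e-06), CD2 (1.88, adjusted p = 1.55e-05), LY6E (1.46, adjusted p = 0.000199), WT1-AS (1.08, adjusted p = 0.00136) and VEGFA (1.03, adjusted p = 0.000182). At the SLC9A9 and PPP1R3A regions the called differences from V-K562 had opposite signs in the BASP1 lines. Groups of 3 cultures are too small for a test of outlying cultures.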

How the results depend on the processing

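Counts of called distal regions depended on the scaling and on how the pileup was measured. In B-K562 against V-K562, 763 lower and 75 higher became 445 and 129 with no scaling, 1317 and 31 when scaled near gene starts, 433 and 41 with a pseudocount of 8, 390 and 31 by mean pileup, and 2496 and 709 with no fold criterion; scaling within 20 bins of GC content gave 447 lower. In G-K562 against V-K562, 1968 and 174 became 1027 and 721 with no scaling, 1185 and 326 under GC scaling and 4197 and 1438 with no fold criterion, and the number higher was 66 when scaled near gene starts and 98 by mean pileup. In G-K562 against B-K562, the fold criterion left off gave 2844 and 1960, and the 586 higher became 1049 with no scaling and 351 by mean pileup. Of the 763 and 1968 lower, 415 and 1125 remained under GC scaling.

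The median difference of distal regions moved from -0.15 to -0.0011, -0.065, -0.33, -0.20 and -0.21 in B-K562 with no scaling, GC scaling, scaling near gene starts, a 50 kb limit and GENCODE starts, and from -0.20 to 0.15, -0.071, -0.45, -0.32 and -0.29 in G-K562. In G-K562 against B-K562 it turned from -0.04 to 0.17 with no scaling and 0.0040 under GC scaling. The gap to regions near gene starts went from -0.34 to -0.12 and from -0.46 to -0.15 under GC scaling, and to -0.27 in B-K562 with a 50 kb limit. The set held 3950 regions with a 50 kb limit and 8642 with GENCODE starts as well. Composite regions lower in G-K562 numbered 135 with no scaling and 141 under GC scaling. The gap of GATA in B-K562 turned from -0.03 to 0.10 under GC scaling and to 0.0049 in regions over 500 bp from every transcript start, and that of AP-1 in G-K562 from -0.13 to 0.010 under GC scaling. Under GC scaling, a pseudocount of 8 and mean pileup, the gap in G-K562 against V-K562 was -0.30, -0.44 and -0.43 for GATA (-0.51 as reported) and -0.68, -0.75 and -0.69 for the composite (-0.84), and that of the composite against B-K562 -0.78, -0.76 and -0.73 (-0.87). The AP-1 gap in B-K562 (-0.24) was -0.16 under GC scaling, -0.22 with a pseudocount of 8 and -0.20 by mean pileup. The motif gaps were added to the alternatives after seeing the data. Beyond what the settings change by construction, the cause was not tested.

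Leaving out each culture in turn gave 711 to 780 lower and 70 to 83 higher in B-K562, 1831 to 2109 and 175 to 218 in G-K562, and 1385 to 1558 and 545 to 667 between the BASP1 lines. With the replicate number as a block the counts were 765 and 75, 1968 and 174, and 1462 and 585. Deviations of same-numbered cultures correlated at 0.03 to 0.12 between V-K562 and B-K562. The values were 0.03 to 0.09 between V-K562 and G-K562 and 0.01 to 0.11 between the BASP1 lines. For differently numbered cultures they were -0.08 to 0.05, -0.05 to 0.02 and -0.08 to 0.04 in the same order. The labels do not say whether same-numbered cultures were handled together, and this was not tested. Of 2976 alternative values at 62 named regions, 29 lost and 27 gained a call. Among differences that were called as reported, 0 changed sign. Changes of sign at differences without a call were not counted.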
